A study of Mus musculus with 6 samples.

Results

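The genes followed here are 10 genes of smooth muscle and of the mesenchyme that surrounds the ureter: Tbx18, Myocd, Acta2, Tagln, Myh11, Smtn, Des, Cnn1, Actg2 and Lmod1. The tissue was the whole kidney of mouse embryos at E13.5. All probe sets that the platform annotation gives to one of these genes alone were taken, which gave 16 probe sets of the 10 genes, among 18193 genes with a probe set of their own. There were 3 samples of Fz4-/- kidneys, which lack the Wnt and Norrin receptor Fz4 encoded by Fzd4, and 3 samples of Fz4+/+ kidneys. The samples come from 3 litters, with both genotypes taken once from each litter. Kidney rudiments were hybridised on Affymetrix MOE430.2 arrays, and every value below is a log2 expression value per probe set. The labels used here do not give the strain, the sex, how the Fz4 allele was made, how many embryos went into a sample, or how much of the ureter stayed on a kidney. All p-values refer to the spread among these 6 samples, which may be technical.

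The wall of the ureter and the walls of renal arteries are built by smooth muscle cells. In the ureter these cells come from mesenchyme that expresses the T-box factor Tbx18 and receives hedgehog, Wnt and BMP signals from its surroundings. Myocardin, the product of Myocd, binds serum response factor at CArG boxes and turns on genes of the contractile apparatus such as Acta2, Tagln, Myh11 and Cnn1. In the mouse ureter this program starts at about the stage sampled here, and full contractile differentiation comes later.

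Array medians lay between 6.62 and 6.74, but RMA equalises the arrays, so this does not show that they were alike. The first principal component, the axis along which the arrays differed most, held 70.8% of the variance. It placed the litter 3 samples at 48.7 (Fz4-/-) and 70.1 (Fz4+/+), and the others between -48.9 and -0.098. Fzd4 was lower in every Fz4-/- sample, at 4.37, 3.58 and 6.22 in litters 1, 2 and 3, against 11.21, 11.12 and 10.31 in the Fz4+/+ samples on its brightest probe set. Kidney markers were well above the filter on low signal (5.89) in all 6 arrays: the lowest values were 7.76 for Six2 of nephron progenitors and 10.73 for Foxd1 of the stroma. Both samples of litter 2 stood apart, in opposite directions, in genes of skeletal and cardiac muscle, whose mean over 20 tested genes was 7.56, 6.42 and 7.68 in the Fz4-/- samples of litters 1, 2 and 3 and 7.66, 8.19 and 7.54 in the Fz4+/+ samples. For the gene lists, differences without litter 2 were computed after the data were seen.

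No member passed the test between the genotypes, and neither did the deleted gene. Fzd4, at -6.16 on its brightest probe set, had a limma adjusted p of 0.999988, so the absence of calls does not show that the members did not differ. limma called 0 of the 8 member probe sets that lay above the filter, against 0 of 27022 over all tested probe sets (0%), and with the litter as a block it again called 0 of 8, against 0% of all. At an unadjusted p under 0.05 stood 1 of the 8, the brightest probe set of Acta2, against 0.884% of all tested probe sets. With the litter as a block the count was again 1 of 8, and the share of all was 3.11%. The Acta2 value did not stay under 0.05 in every setting. Its p was 0.0588 after quantile normalization, where Tagln, at 0.0322, was the 1 member below 0.05. It was 0.0743 to 0.112 when any 1 sample other than the Fz4+/+ sample of litter 3 was left out, and 0.00580 without that sample. The 8 tested probe sets belong to 7 genes, and the remaining 8 probe sets, among them the only ones of Cnn1, Actg2 and Lmod1, lay below the filter and were not tested. In whole-kidney RNA, fewer cells of a type and less RNA per cell cannot be told apart.

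**Figure D1:**
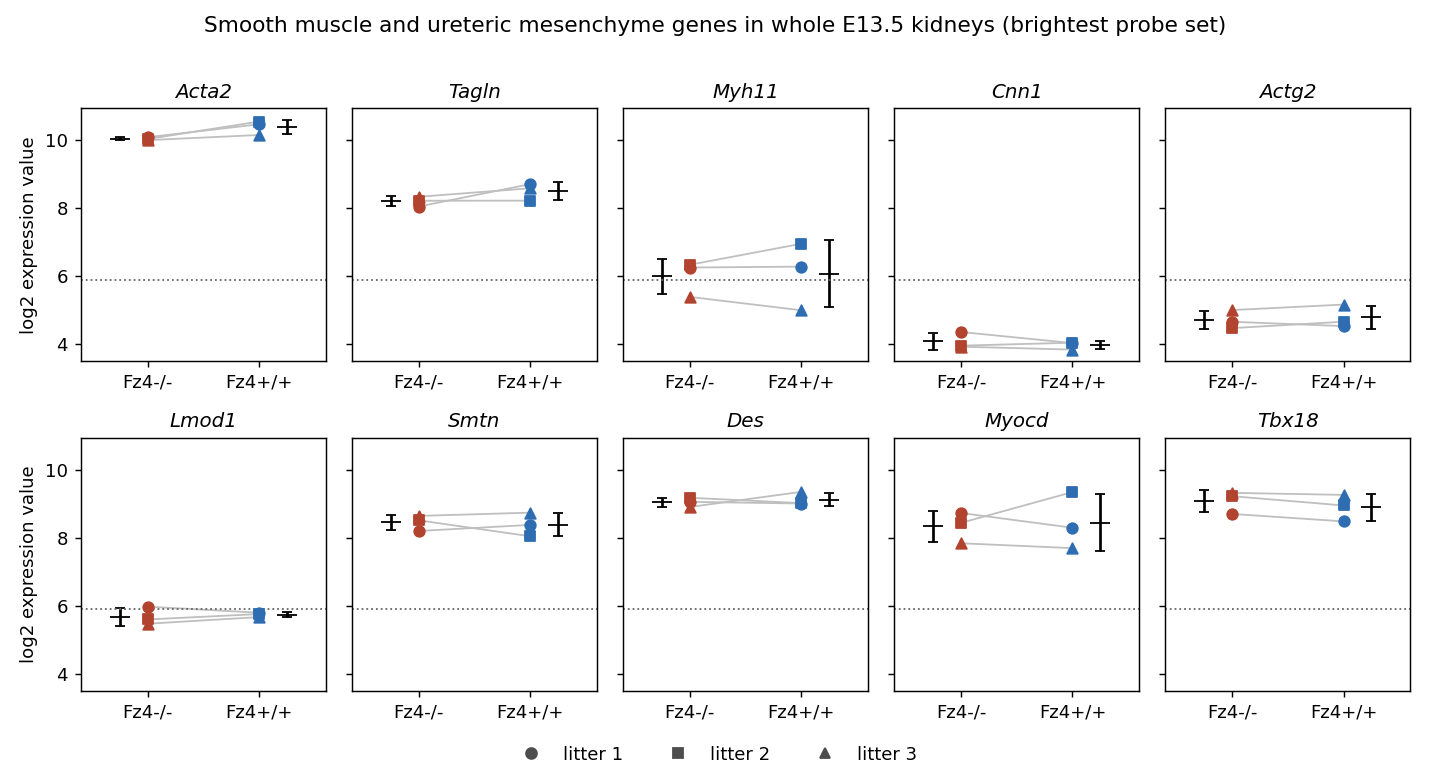
Log2 expression value (vertical axis) of the brightest probe set of each of the 10 genes in the 3 Fz4-/- (red, left) and 3 Fz4+/+ (blue, right) samples. Marker shapes give the litter, grey lines join samples of a litter, bars beside the points are the mean and SD, and the dotted line is the filter at 5.89. Acta2 is the gene whose genotypes do not overlap, and the points of Cnn1 and Actg2 all lie under the dotted line.

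Of the regulators, Tbx18 is the T-box transcription factor that marks the undifferentiated ureteric mesenchyme. On its brighter probe set it read 8.70, 9.22 and 9.32 in the Fz4-/- samples of litters 1, 2 and 3 and 8.48, 8.95 and 9.26 in the Fz4+/+ samples. The Fz4-/- sample was the higher one in each litter, by 0.22, 0.27 and 0.06, while the genotypes overlapped, with both samples of litter 1 the lowest. The difference was 0.18 ± 0.26 (SE), with a 95% confidence interval of -0.44 to 0.81 and a limma adjusted p of 0.999988. With the litter as a block the SE was 0.10 and limma's unadjusted p 0.123. The second probe set read 6.79, 7.58 and 7.46 in Fz4-/- samples and 6.84, 7.24 and 7.28 in Fz4+/+ samples. Its difference was 0.16 ± 0.25 (SE), and here litter 1 went the other way, by -0.05. With litter 1 left out whole, the brighter probe set gave 0.17. It gave -0.024 when the Fz4+/+ sample of that litter alone was dropped. That left the low litter 1 in Fz4-/- only, so this value also holds a difference between litters.

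Myocd, the coactivator that drives the contractile program, was the member that varied most between samples after Myh11. It read 8.73, 8.44 and 7.84 in the Fz4-/- samples of litters 1, 2 and 3 and 8.29, 9.34 and 7.69 in the Fz4+/+ samples. The Fz4+/+ sample of litter 2 was the highest of the 6 and both samples of litter 3 were the lowest. The mean was 8.33 ± 0.45 in Fz4-/- and 8.44 ± 0.83 in Fz4+/+ samples (SD, n = 3 each). The difference of -0.11 had a 95% confidence interval of -1.22 to 1.00, which also counts the spread between litters. Its SE was 0.45, or 0.29 with the litter as a block. Within litters the Fz4-/- sample differed by 0.43, -0.91 and 0.14, so the negative mean came from litter 2 alone. Without both samples of litter 2 the difference was 0.29. Skeletal and cardiac muscle genes differed the same way in that litter, by -1.77 in the mean of the list against -0.09 and 0.14 in litters 1 and 3. The levels were less alike: the list was lowest in the Fz4-/- sample of litter 2, at 6.42, where Myocd lay between its other Fz4-/- values. Myocd is also active in heart muscle, and the part of such cells in its litter 2 value was not tested. A second, dim probe set of Myocd read 3.63, 3.69 and 3.79 in Fz4-/- against 3.94, 4.16 and 4.51 in Fz4+/+ samples, without overlap, but it lay at the 13.1 percentile of all probe sets by mean signal, below the filter.

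Among the contractile genes, Acta2, which encodes smooth muscle alpha-actin, had lower values on its brightest probe set in all 3 Fz4-/- samples than in any Fz4+/+ one. Its promoter is shown because Acta2 is the member with the smallest p and a standard target of serum response factor, and that of Tbx18 because it heads the mesenchymal side of the list. Both are RefSeq sequences of build GRCm38.p6, from 250 bases before to 50 bases after the gene start, on the minus strand, at chr19:34255324-34255623 for Acta2 and chr9:87731211-87731510 for Tbx18. Capitals mark CArG boxes with 1 of the 6 core bases changed.
Acta2: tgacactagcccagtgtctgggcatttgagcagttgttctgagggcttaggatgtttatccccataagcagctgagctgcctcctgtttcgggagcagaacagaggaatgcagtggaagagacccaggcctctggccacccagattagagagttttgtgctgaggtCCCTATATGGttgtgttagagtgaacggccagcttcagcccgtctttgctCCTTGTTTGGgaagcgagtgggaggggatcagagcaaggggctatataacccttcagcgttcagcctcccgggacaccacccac
Tbx18: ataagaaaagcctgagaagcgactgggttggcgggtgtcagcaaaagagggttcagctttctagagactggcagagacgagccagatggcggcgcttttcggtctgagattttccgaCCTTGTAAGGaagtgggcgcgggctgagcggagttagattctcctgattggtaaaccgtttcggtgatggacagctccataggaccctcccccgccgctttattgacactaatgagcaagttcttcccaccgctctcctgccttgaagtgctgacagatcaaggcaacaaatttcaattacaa

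The CArG box, a pair of C and a pair of G around 6 bases of A or T, reads the same on both strands. Promoters were given for 6 of the 10 genes (Acta2, Tbx18, Smtn, Des, Cnn1 and Lmod1). An exact CArG box was in 0 of these 6 and in 1.57% of 27018 promoters of the same length. After this result the search was widened to boxes with 1 core base changed, and 2 of the 6 promoters held one, against 8.57% of all. The Acta2 promoter held 2 such boxes, CCCTATATGG and CCTTGTTTGG, whose first bases lie 84 and 34 bases before the gene start, and that of Tbx18 held CCTTGTAAGG, 133 bases before it. A match of letters is a description and does not show binding.

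Acta2 read 10.08, 10.03 and 9.999 in the Fz4-/- samples of litters 1, 2 and 3, against 10.47, 10.55 and 10.15 in the Fz4+/+ samples. The 3 Fz4-/- values lay close together and the Fz4+/+ sample of litter 3 was the nearest to them. The difference was -0.35 ± 0.13 (SE), or 0.785-fold, with a 95% confidence interval of -0.68 to -0.02, and it was negative in every litter, at -0.38, -0.51 and -0.15. limma's unadjusted p was 0.0400 and its adjusted p 0.999988, and the exact permutation p was 0.1, the smallest that 3 against 3 can give. The block on litter gave an SE of 0.11 and a limma unadjusted p of 0.0314. Genotypes that do not overlap, lower in Fz4-/-, were found for 1.21% of all tested probe sets, and for 1 of the 8 member probe sets. Without both samples of litter 2 the difference was -0.27. The probe set carries the suffix _s_at, which Affymetrix gives to probe sets that can match transcripts of several genes, though the annotation names Acta2 alone. Actc1 and Acta1, the actins of heart and skeletal muscle, differed within litters by -0.14, -2.25 and -0.16, and by -0.19, -2.34 and 0.28. Whether their transcripts add to the signal of the Acta2 probe set was not tested.

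The remaining pair of Acta2 probe sets lay below the filter and did not go the same way. The brighter of them read 5.06, 4.36 and 4.64 in Fz4-/- and 4.16, 4.24 and 4.67 in Fz4+/+ samples, a difference of 0.33. The dimmer gave a difference of 0.10. RMA, the method behind these values, compresses differences near background. When all 3 probe sets were averaged, the Acta2 difference was 0.03, so its sign depends on the choice of the bright probe set.

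Tagln encodes transgelin (SM22-alpha), an actin-binding protein of early smooth muscle. It read 8.05, 8.22 and 8.33 in the Fz4-/- samples of litters 1, 2 and 3 and 8.71, 8.22 and 8.58 in the Fz4+/+ samples. The Fz4+/+ sample of litter 2 lay within the range of the Fz4-/- samples, so the genotypes overlapped. Its difference was -0.30 ± 0.16 (SE), with a 95% confidence interval of -0.70 to 0.09 and a limma unadjusted p of 0.111. Litters gave -0.66, -0.0016 and -0.25, and the block on litter left the SE at 0.16. Without both samples of litter 1 the difference was -0.13, and without both of litter 2 it was -0.45.

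Myh11, the heavy chain of smooth muscle myosin and a marker of the differentiated state, spread more than any other member. Its brighter probe set read 6.26, 6.34 and 5.39 in Fz4-/- and 6.28, 6.95 and 4.999 in Fz4+/+ samples of litters 1, 2 and 3. The mean was 5.99 ± 0.52 in Fz4-/- and 6.08 ± 0.99 in Fz4+/+ samples (SD, n = 3 each), and both samples of litter 3 lay below the other 4. The difference was -0.08 ± 0.53 (SE), with litters at -0.03, -0.62 and 0.39, and it was 0.18 without both samples of litter 2. Its SE was 0.22 with the litter as a block. The second probe set lay below the filter, between 4.98 and 5.53 in all 6 samples.

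Smtn encodes smoothelin, a cytoskeletal protein of contractile smooth muscle. It read 8.20, 8.51 and 8.64 in Fz4-/- and 8.38, 8.04 and 8.74 in Fz4+/+ samples. Its difference of 0.06 ± 0.21 (SE) was positive through litter 2, which gave 0.47 where litters 1 and 3 gave -0.18 and -0.095, and it was -0.14 without litter 2. The SE was 0.16 with the litter as a block. Des encodes desmin, the intermediate filament protein of all muscle. It read 9.05, 9.17 and 8.90 in Fz4-/- and 9.004, 9.02 and 9.35 in Fz4+/+ samples. The difference was -0.08 ± 0.14 (SE), and the block on litter gave an SE of 0.15. In litter 2 Des differed by 0.16 where the skeletal and cardiac muscle list differed by -1.77, so desmin did not follow that list. A dim second probe set of Des, at the 3.51 percentile, read 3.18, 3.12 and 2.67 in Fz4-/- against 3.29, 3.25 and 3.30 in Fz4+/+ samples, without overlap. Of the 8 member probe sets below the filter, 2 did not overlap and were lower in Fz4-/-, those of Myocd and Des, against 4.27% of all probe sets below the filter.

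The late contractile genes were dim in all 6 arrays. Cnn1, which encodes calponin, read 4.36, 3.96 and 3.93 in Fz4-/- and 4.04, 4.05 and 3.84 in Fz4+/+ samples. Actg2, the gamma-actin of visceral smooth muscle, read 4.66, 4.48 and 5.01 in Fz4-/- and 4.53, 4.66 and 5.17 in Fz4+/+ samples. By mean signal these probe sets stood at the 14.1 and 23.8 percentiles of all probe sets. Lmod1, a leiomodin that nucleates actin filaments in smooth muscle, read 5.97, 5.60 and 5.47 in Fz4-/- and 5.80, 5.76 and 5.67 in Fz4+/+ samples, just under the filter at the 37.5 percentile. The genotypes overlapped for all 3 genes, and no detection calls could be used, so these values do not say whether the genes were silent.

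**Figure D2:**
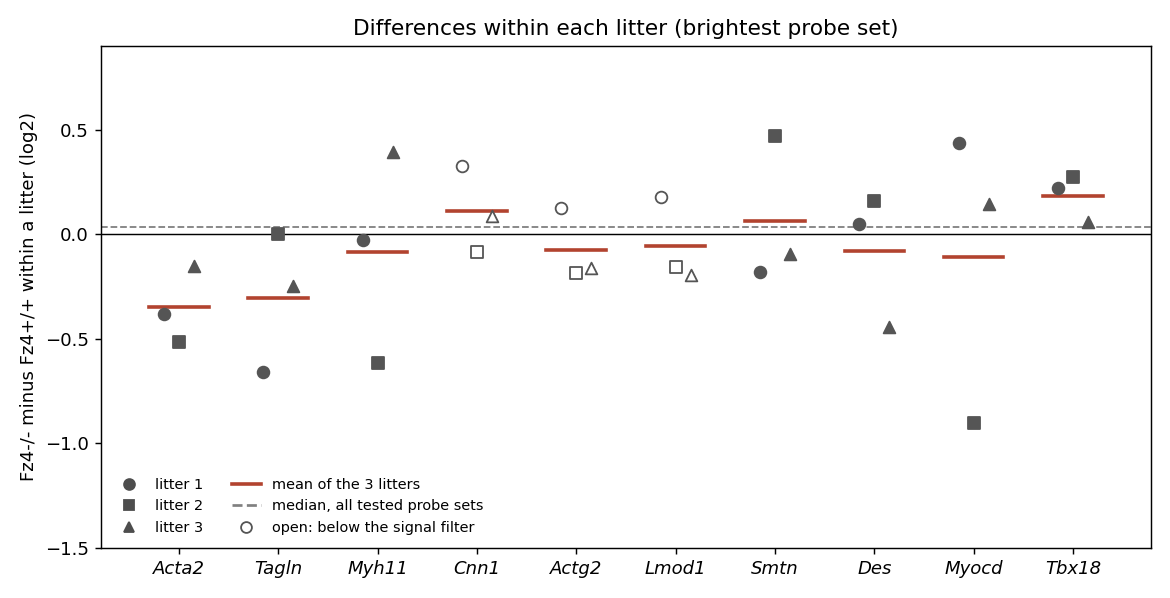
Difference of Fz4-/- minus Fz4+/+ within each litter (vertical axis, log2) for the brightest probe set of the 10 genes, with the marker shape giving the litter. Red bars are the means of the 3 litters, open markers are genes below the filter, and the dashed line is the median of all tested probe sets, 0.03. All 3 litters lie below 0 for Acta2 and Tagln and above 0 for Tbx18, and litter 2 is the lowest point of Myocd at -0.91.

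Direction was the same in all 3 litters for 3 of the 8 tested probe sets: the bright ones of Acta2 and Tagln, lower, and of Tbx18, higher in Fz4-/-. Over all tested probe sets the share was 21.5%. The median difference over the 7 tested genes was -0.08, beside a median of 0.03 over all tested probe sets, and 5 of the 8 probe sets were below 0, where 38.4% of all tested probe sets were. By litter, the median over the 10 genes was 0.09, -0.12 and -0.12, with 4, 7 and 6 genes below 0. Over all tested probe sets the litter medians were -0.0066, 0.12 and -0.00025.

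Members differed in how far their litter means lay apart. Those of Des, Acta2 and Tagln lay within 0.096, 0.21 and 0.24 of each other, where the median over all tested probe sets was 0.33. Litter means of Myh11 were 6.27, 6.65 and 5.20 and those of Myocd 8.51, 8.89 and 7.76, so both were lowest in litter 3. Tbx18, at 8.59, 9.08 and 9.29, was lowest in litter 1 and highest in litter 3. Foxf1, a forkhead factor of visceral mesenchyme named here after its values were seen, was also lowest in litter 3. It read 7.37, 6.60 and 5.54 in Fz4-/- and 7.25, 7.99 and 5.02 in Fz4+/+ samples, with both litter 3 values below the filter. As for Myh11, the Fz4+/+ sample of litter 2 was the highest of the 6 and that of litter 3 the lowest. Foxf1 does not stand for its list, the ureteric mesenchyme genes treated below. The mean of the 21 tested genes of that list read 9.60, 9.64 and 9.55 in Fz4-/- and 9.50, 9.59 and 9.57 in Fz4+/+ samples. Within it Sox9 was also lowest in litter 3, whereas Gli2 was highest there.

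**Figure D3:**
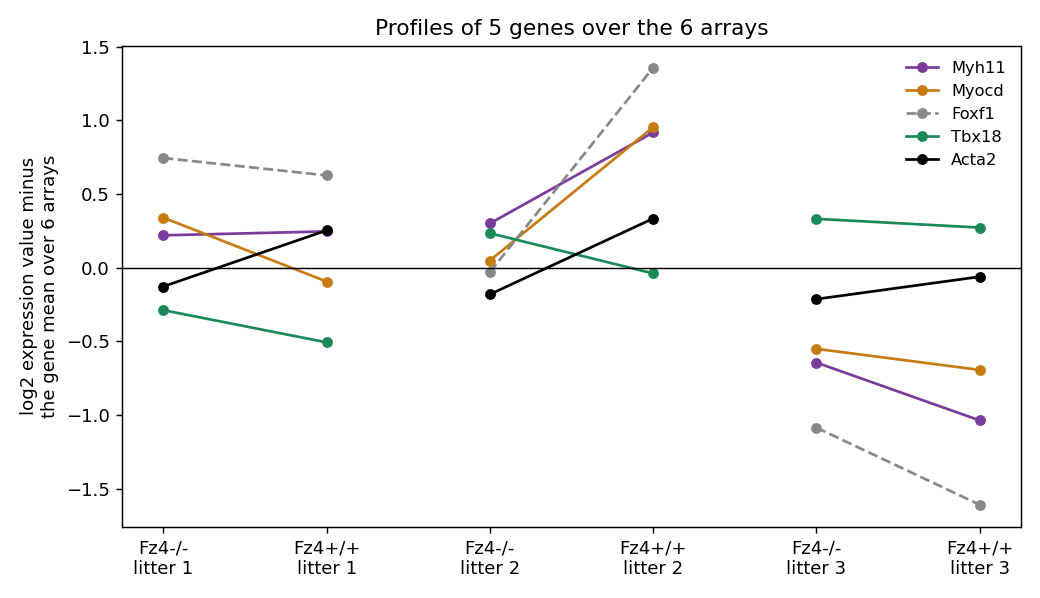
Log2 expression value minus the mean of the gene over the 6 arrays (vertical axis) for Myh11, Myocd, Tbx18, Acta2 and, dashed, Foxf1, with the samples of each litter joined and Fz4-/- left of Fz4+/+. Myh11, Myocd and Foxf1 are highest in the Fz4+/+ sample of litter 2 and low in both samples of litter 3, whereas Tbx18 is above its mean in litter 3.

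Genes with profiles most like a member were sought among the other tested genes, by the mean absolute gap between mean-centred log2 values over the 6 arrays. For Tbx18 these were Ror2, a receptor for Wnt5a, Efnb3, an ephrin ligand, and Dock3, at gaps of 0.034, 0.034 and 0.056, beside a median gap of 0.26 over all genes. Ror2 read 8.50, 9.07 and 9.10 in Fz4-/- and 8.32, 8.76 and 9.16 in Fz4+/+ samples. For Acta2 they were Ms4a15, Srrm4 and Gm8479, at gaps of 0.037 to 0.058, beside a median of 0.27. For Myh11 they were Igf1os, Tshb and Acot4, at gaps of 0.068 to 0.133, beside a median of 0.64. All those named for Acta2 and Myh11 were dim, with mean levels of 6.10 to 6.62, near the filter at 5.89. The 6 arrays share litters, so such likeness follows the litters as well as the genotypes.

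The wider smooth muscle program showed no change that passed the test. Of 21 tested contractile genes beyond the members, 0 were called in either direction, 14 were above and 7 below 0, and the median was 0.04, or 0.011 without litter 2. Over all tested probe sets 38.4% were below 0 and the median was 0.03. The sign counts of this and the following lists stand beside that share. Mylk, the kinase that starts contraction by phosphorylating myosin light chain, differed by 0.08 ± 0.10 (SE). The actin-bound regulators Cald1 (caldesmon) and Tpm2 (tropomyosin) differed by -0.08 and -0.09, and Myl9, a myosin light chain, by 0.0014. Synpo2, an actin-bundling protein, was the furthest up, at 0.49 ± 0.33 (SE), or 0.31 without litter 2. It read 7.51, 7.86 and 8.03 in Fz4-/- and 6.89, 7.03 and 8.02 in Fz4+/+ samples. By unadjusted p, Hspb1, at 0.19, came first among the higher genes, with limma's p at 0.137. Nexn, at -0.35, came first among the lower genes, with a p of 0.207.

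Of 10 tested regulators of the program, 0 were called, 8 were above 0, and the median was 0.06. Serum response factor (Srf), the DNA-binding partner of myocardin, differed by 0.04 ± 0.11 (SE). Its coactivators Mrtfa and Mrtfb differed by 0.12 and -0.03, or by -0.03 and -0.06 without litter 2. Tshz3, a zinc finger factor needed for smooth muscle of the mouse ureter, read 10.79, 10.92 and 10.68 in Fz4-/- and 10.50, 10.64 and 10.43 in Fz4+/+ samples. The genotypes of Tshz3 did not overlap, with differences of 0.29, 0.28 and 0.24 by litter, and limma's unadjusted p was 0.0588 and its adjusted p 0.999988. With the litter as a block these were 0.0306 and 0.999986. Genotypes that do not overlap in either direction made up 3.64% of all tested probe sets. Prrx1, at -0.13 ± 0.24 (SE), had the smallest p of the lower ones and was at 0.0075 without litter 2. The median of the regulators without litter 2 was 0.012.

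Signals and factors of the ureteric mesenchyme gave 0 calls among 21 tested genes, with 12 above and 9 below 0 and a median of 0.04, or 0.022 without litter 2. Bmp4, a signal needed for smooth muscle around the ureter, differed by 0.03 ± 0.14 (SE). The T-box repressors Tbx2 and Tbx3 differed by 0.04 and -0.03, and Sox9 by 0.04. The hedgehog receptor and target Ptch1 read 11.96, 12.09 and 11.99 in Fz4-/- and 11.92, 11.88 and 11.78 in Fz4+/+ samples, a difference of 0.16 without overlap and with a limma unadjusted p of 0.175. Gli1, another hedgehog target, differed by 0.34 ± 0.16 (SE), with a p of 0.0814 and overlapping genotypes. Tshz2, at -0.09, had the smallest p of the lower ones.

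Markers of pericytes and vascular smooth muscle, the other source of Acta2 and Tagln in kidney, gave 0 calls among 11 tested genes, with 6 above 0 and a median of 0.04, or -0.04 without litter 2. Pdgfrb, the growth factor receptor of mural cells, differed by -0.05 ± 0.14 (SE). Rgs5 differed by -0.16, Notch3 by 0.04 and the proteoglycan gene Cspg4 by 0.44, with limma's unadjusted p at 0.210, 0.793 and 0.0590. The summed level of this list, as the mean of its genes, lay between 8.53 and 8.62 in Fz4-/- and between 8.31 and 8.72 in Fz4+/+ samples. The list of skeletal and cardiac muscle holds other genes of the actin and myosin families. It gave 0 calls among 20 tested genes, with 17 below 0 and a median of -0.59. Without litter 2, 11 were below 0 and the median was -0.08. The muscle factor Myog differed by 0.17, -3.29 and 0.42 in litters 1, 2 and 3, a mean of -0.90, or 0.29 without litter 2. Myod1, Myh3 and Actn2 differed by -0.61, -1.16 and -0.55, or by -0.12, -0.26 and -0.29 without litter 2. Tnni1 had the smallest p among the 3 above 0, at 0.10, or 0.20 without litter 2. The mean of that list lay between 6.42 and 7.68 in Fz4-/- and between 7.54 and 8.19 in Fz4+/+ samples, with the lowest and the highest both from litter 2. Its part in the values of the members was not tested.

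**Figure D4:**
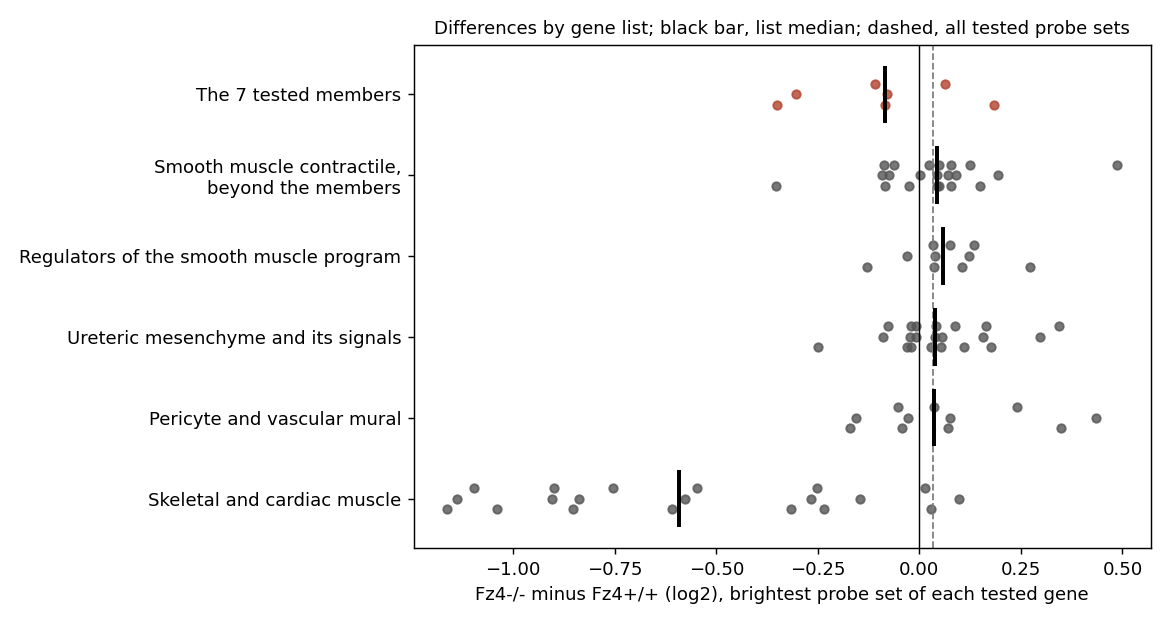
Difference of Fz4-/- minus Fz4+/+ (horizontal axis, log2) for the brightest probe set of each tested gene in 6 lists. Points are genes, black bars are list medians and the dashed line is the median of all tested probe sets, 0.03. The 4 lists of smooth muscle, its regulators, ureteric mesenchyme and mural cells centre between 0.04 and 0.06, the 7 tested members at -0.08 and the skeletal and cardiac muscle list at -0.59.

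Lists of the neighbouring tissues also gave 0 calls. Ureteric epithelium, which signals to the mesenchyme, had 10 of 11 tested genes above 0 and a median of 0.17, with Krt7 at 0.50, Cdh1 at 0.24 and Perp at 0.73. Without litter 2 the median was 0.08 and Krt7 was at 0.21. Uroplakin genes did not share that sign throughout: Upk2, the 1 tested gene below 0, was at -0.08. Below the filter, Upk1b was at -0.44, lower in all 3 litters, Upk1a at -0.41 and Upk3a at 0.08. Renal stroma had 8 of 13 above 0 and a median of 0.02, with Ntn1 at 0.43, Foxd1 at 0.11 and Lum at -0.26. Without litter 2 the median was 0.09 and Lum was at -0.14. Nephron progenitors had 7 of 9 below 0 and a median of -0.11, with Cited1 at -0.33 and Six2 at -0.10. Their median was -0.16 without litter 2, where Osr1, at 0.24 with it, was at -0.0255. The mean of the ureteric epithelium list lay between 9.73 and 9.83 in Fz4-/- and between 9.30 and 9.71 in Fz4+/+ samples. It differed by 0.14, 0.53 and 0.08 in litters 1, 2 and 3. In this list the mean of the Fz4+/+ sample of litter 2 was the lowest of the 6, at 9.30 against 9.59 to 9.83 in the others. That is the same sample in which Myocd, Myh11 and the skeletal and cardiac muscle list were highest.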

How the data were processed

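Per the submitters' processing notes, the authors summarised the arrays with RMA, whose version is not given in the sources used here. The deposited log2 expression values per probe set (2.22 to 14.79 over 45101 probe sets) were used without further normalisation, and 0 sample columns were left unused. RMA equalises the arrays and compresses differences near background, and no scans were used. Group and litter came from the labels.

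Gene names came from the platform annotation, with Entrez numbers checked against RefSeq genes of GRCm38.p6: 34958 had 1 gene, 932 several and 9211 none. After 64 controls were left out, 27022 probe sets with a mean at or above the 40th percentile (5.89) were tested with limma 3.58.1 in R 4.3.3 (lmFit, eBayes, two-sided, Benjamini-Hochberg over all, threshold 0.05), with genotype as the sole term. The code was tested on simulated data. Single values had an exact permutation test. The brightest probe set stood for a gene in lists. Differences are Fz4-/- minus Fz4+/+. Their SEs and confidence intervals come from the fit with genotype alone, unless the litter block is named, and so include spread between litters.

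Labels tie equal numbers to a litter, so these pair the samples. Deviations from genotype means correlated by 0.577, 0.178 and 0.809 in litters 1 to 3. The members and lists were chosen with earlier results of these data known. Named genes were all members, Fzd4, the first 5 written of each list that were measured (fewer in lists of neighbouring tissues), the smallest p in each direction, and the 3 nearest profiles of Acta2, Myh11 and Tbx18. The number of arrays limits the precision. Alternatives covered the litter block, filter, normalisation, variance prior, array weights, probe set choice, and samples and litters left out.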

Additional observations from a re-analysis of the deposited data

How the results depend on the processing

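With the litter as a replicate block, 0 of 27022 probe sets and 0 of 8 member probe sets were called, so the block changed no call. Member calls were 0 under every alternative run, but apart from array weights none of them called Fzd4 either, so these counts say nothing about stability. Array weights called 2 probe sets in all, none a member, with a lowest member adjusted p of 0.147 (limma). The weights were 8.81 for the Fz4-/- sample of litter 2 and 2.99 for the Fz4+/+ sample of litter 1, against at most 0.66 for the others. Averaging the probe sets of a gene turned the Acta2 difference to 0.027. Array weights turned Des to 0.13 and Myocd to 0.020 and gave 0.60 for Tbx18 in place of 0.18. They brought 4 of the 8 member probe sets to a limma unadjusted p under 0.05 in place of 1. Over all 27022 tested probe sets that count rose from 239 to 6084 with the weights, so the rise is not particular to the members. Leaving out both samples of litter 2 turned Myh11 to 0.18, Smtn to -0.14 and Myocd to 0.29, and leaving out both of litter 3 turned Des to 0.10. With 1 sample left out at a time, the differences ran from -0.62 to 0.35 for Myh11, -0.14 to 0.033 for Des, -0.11 to 0.24 for Smtn, -0.48 to 0.34 for Myocd and -0.024 to 0.37 for Tbx18. Acta2 stayed between -0.47 and -0.27 and Tagln between -0.45 and -0.20. Dropping 1 sample leaves its litter with 1 genotype only, so all these ranges also hold differences between litters. The median over the 10 genes ran from -0.14 to 0.02. The count of tested member probe sets whose genotypes do not overlap, examined after the data were seen, was 1. It was 3 without the filter, where 16 were tested, and from 1 to 2 with 1 sample left out. It was 2, 2 and 3 without both samples of litters 1, 2 and 3, where fewer samples make overlap rarer. Shares over all probe sets are not given for these settings, so the changed counts say nothing particular to the members. The alternatives could not give another median for the filter or the litter block, since neither changes a difference of means. A change in total RNA per cell cannot be seen after RMA, and dim probe sets, those of Cnn1, Actg2 and Lmod1 included, limit what their values show.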
